A study of Mus musculus with 3 samples.

Results

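The comparison described here sets myotubes kept in cancer-conditioned medium against myotubes kept in control medium, and its members were the 24401 gene loci in the rows of the deposited table that pair the control library with the conditioned media library, out of 73203 rows for 3 such pairings. Loci with a mean of at least 1 FPKM (sequenced fragments, scaled to transcript length and to the number of mapped fragments) over the 3 libraries were described, which left 11858. The cells were C2C12, a mouse myoblast line that fuses into myotubes when serum is withdrawn. All cultures were grown in DMEM with 10% fetal bovine serum to confluency and then spent 72 hours in differentiation medium, DMEM that held 2% horse serum plus insulin at 1 µg/ml. The control culture then had DMEM for 24 hours. The conditioned media culture had, for the same 24 hours, medium conditioned for 24 hours by S2-013, a human pancreatic cancer line. A further culture had that kind of medium with 50 µM resveratrol, a plant polyphenol, and its values are given beside the others without a comparison of its own. How much serum the control DMEM and the conditioned medium held is not stated in the sources used here, so serum and conditioning cannot be told apart. Each medium is represented by 1 library of 1 clonal cell line, so there is no spread between replicates, no test, and every difference below is between 2 libraries.

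Muscle wasting in cancer, or cachexia, is commonly modelled by exposing myotubes to medium from tumour cells. Cytokines in such medium act on myotubes through receptors that signal to NF-kB and STAT3, and the muscle ubiquitin ligases MuRF1 (Trim63) and atrogin-1 (Fbxo32) mark sarcomeric proteins for breakdown by the proteasome. Muscle mass also depends on protein synthesis, and so on the making of ribosomes, in which RNA polymerase I transcribes ribosomal RNA that small nucleolar ribonucleoproteins modify and assembly factors fold with ribosomal proteins.

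Differences are given as the log2 of (conditioned media FPKM + 1) over (control FPKM + 1), which understates the change of low genes, and levels are FPKM. Where 3 levels follow a gene, they are those of control, conditioned media, and conditioned media with resveratrol, in that order, and where 2 levels are joined by "to" the first is control and the second conditioned media. A locus was called higher or lower at 2-fold, a log2 ratio of at least 1 in size, and under a second rule at 1.5-fold. Of all loci, 235 were higher by at least 2-fold, 1.98% of those described, and 89 were lower, 0.751%. At 1.5-fold, 881 were higher (7.43%) and 583 lower (4.92%). The median ratio of all loci was -0.01, and the 5th and the 95th percentile were -0.58 and 0.70. Lists of genes are read below against these percentages and against the median of all loci.

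The ratio moved with the level. Among 1534 loci with a mean of 1 to 3 FPKM the median was 0.14 and 18.3% were higher by at least 1.5-fold, while among 834 loci at 100 FPKM or more the median was 0.00 and 3.72% were higher. Lower calls were spread more evenly, with 5.08% and 6.12% in those groups. Of the 235 loci called higher, 13 were listed at 0 in control, among them 9 small RNA genes and Serpina3n, Wfdc17, Rab42 and Hist1h4j, and all 8 loci listed at 0 in conditioned media and called lower were small RNA genes. FPKM summed to 3384770 in control and 2953950 in conditioned media, with 83.0% and 79.3% of the sum in loci of 200 bases or less. Bringing both libraries to equal sums therefore raises ratios, by 0.20 before the pseudocount, and the calls of 881 higher and 583 lower become 1504 and 249, so gene groups are described below by their place relative to the median of all loci. Next to the threshold on level, Phkg1 had 0.717, 0.75 and 1.54 FPKM and lay inside it, and Eps8l2 had 0.769, 1.39 and 0.833 FPKM and lay outside. Next to the 2-fold rule, Ccl5 at 1.00 was inside and Arrb1 at a ratio that rounds to 1.00 just outside.

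**Figure D1:**
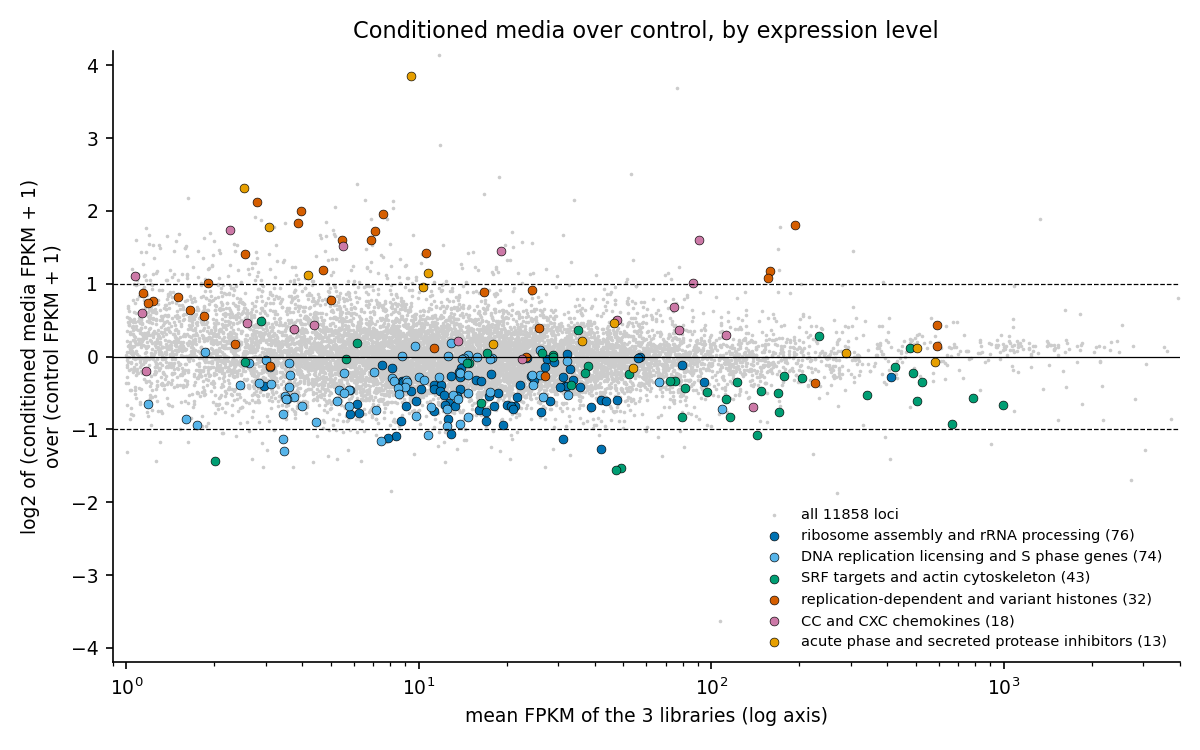
Each point is a locus, with its mean FPKM over the 3 libraries on a log axis and the log2 ratio of conditioned media over control (FPKM + 1) on the vertical axis; coloured points are genes of 6 lists, and dashed lines mark 2-fold. Histone, chemokine and acute phase genes extend above the upper line, ribosome assembly and S phase genes lie mostly below 0, and 54 loci outside the axes, 52 of them without a single symbol, predicted or small RNA genes, are not drawn.

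The culture expressed the genes of differentiated muscle in both libraries. Myogenin (Myog), the factor that drives terminal differentiation, had 384, 313 and 596 FPKM, skeletal alpha-actin (Acta1) had 1568, 1496 and 2272 FPKM, and desmin (Des), the muscle intermediate filament, had 397, 433 and 602 FPKM. Embryonic myosin heavy chain (Myh3) had 184, 158 and 192 FPKM, although the labels call the cell type a myoblast. Among markers of other cell types, 2 of 12 macrophage genes reached the level minimum, and Ptprc, Adgre1, Lyz1 and Tyrobp were listed at 0 in all 3 libraries. The summed level of that list was 7.37 FPKM in control and 9.15 in conditioned media. Of 12 epithelial genes, 1 was measured, Krt19, and the list summed to 3.01 and 4.87 FPKM, with Krt18 and Cldn7 at 0 throughout. The 10 adipocyte genes summed to 4.82 and 6.56 FPKM. Of 11 fibroblast genes, 7 were measured, and they were the marker list with the highest summed level, with 2472 FPKM in control and 3402 in conditioned media, led by the collagens Col1a1 and Col3a1, with Tcf21 at 0. Fewer cells of a type and less RNA per cell cannot be told apart in such libraries.

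Genes of the inflammatory response were among the highest of all loci. The 20 highest genes with a single symbol and at least 10 FPKM in the higher library were drawn from 77 such genes called higher. Serpina3n (chr12:104406708-104414330, mm10), an acute phase protease inhibitor of a family with many near-identical copies, was listed at 0 in control and had 13.4 FPKM in conditioned media and 14.9 with resveratrol. Inducible nitric oxide synthase (Nos2, chr11:78920685-78960221) had 15.7, 94.2 and 49.5 FPKM, a log2 ratio of 2.51. The alarmin interleukin 33 (Il33, chr19:29925114-29960715) had 6.07, 38.2 and 12.2 FPKM, a ratio of 2.47. Both were high in the 2 libraries from conditioned medium, and the level with resveratrol lay between those of control and conditioned medium alone. The chemokine Cxcl1 (chr5:90891245-90893115), which attracts neutrophils, had 26.8, 83.4 and 162 FPKM, a ratio of 1.60, and here the library with resveratrol was the highest. Invariant chain (Cd74), which accompanies MHC class II molecules, had 2.67, 14.1 and 7.73 FPKM, while 1 of 6 other class II genes reached the level minimum. The C-type lectin gene Cd209c had 5.68, 30.5 and 14.04 FPKM, a ratio of 2.24.

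Of 18 chemokine genes measured, 8 were higher by at least 1.5-fold and 1 lower, 44.4% higher against 7.43% of all loci, and 6 were higher by 2-fold. The median was 0.48, and 15 lay above the median of all loci. The CC chemokines Ccl5, Ccl8 and Ccl9 had 27.5 to 56.3, 7.52 to 22.4 and 3.21 to 11.02 FPKM, and the monocyte chemokine Ccl2 had 39.9 to 56.8, a ratio of 0.50 under the 1.5-fold rule. Cxcl11 had 0.611 to 4.39, whereas Cxcl10, another ligand of the same receptor, was the member called lower, with 177 to 109. Ccl2, Ccl5, Ccl8 and Cxcl1 stood above 1 FPKM in every library, while Cxcl11, Ccl17 and Ccl11 were below 1 FPKM in control. Cxcl11 and Ccl11 reached the level minimum only through the other libraries, which can raise the share called higher. Of 29 acute phase and secreted inhibitor genes in the deposited table, 13 were measured. Among these, 6 were higher by at least 1.5-fold, 46.2% against 7.43%, and none lower, with a median of 0.46. Serpina3n and Wfdc17, both at 0 in control, and Lcn2 reached the level minimum only through the other libraries, which can raise that share. Besides Serpina3n, lipocalin 2 (Lcn2) had 0.0778 to 2.69 FPKM, Slpi had 3.04 to 7.92, serum amyloid A3 (Saa3) had 1.49 to 4.402 and pentraxin 3 (Ptx3) had 6.72 to 14.04. Of 9 complement genes measured, 3 were higher by at least 1.5-fold, 33.3% against 7.43%. C3, the central component, had 26.8, 49.2 and 59.6 FPKM, and its regulators Cd55 and Serping1 had ratios of 0.74 and 0.72.

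The cytokine genes themselves gave a more mixed picture. Interleukin 6 (Il6) had 5.72, 11.5 and 18.6 FPKM, a ratio of 0.90, and Tslp and Il15 had ratios of 0.86 and 0.66. With Il33 these were the 4 of 14 measured cytokine genes past 1.5-fold, all higher, 28.6% against 7.43% of all loci. The median of that list was 0.11, and Il1b, with 2.27 to 3.13 FPKM, and Lif, with 8.88 to 8.197, were within 1.5-fold. Of 27 cytokine receptor genes, 6 were higher by at least 1.5-fold, 22.2% against 7.43% of all loci, and 1 was lower, with a median of 0.28. Fas, the death receptor, had 9.96, 24.1 and 20.9 FPKM, Tnfrsf21 had 2.496, 8.73 and 8.57 FPKM, and the interleukin receptors Il4ra and Il1r1 had ratios of 0.87 and 0.64. The receptor for TWEAK (Tnfrsf12a), a cytokine that causes muscle loss, went the other way, with 206, 111 and 124 FPKM. Stat3, through which interleukin 6 signals, had 43.2, 59.5 and 66.8 FPKM, a ratio of 0.45.

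NF-kB is held in the cytoplasm by inhibitors whose genes it also induces. Of 26 genes for its subunits and inhibitors, 5 were higher by at least 1.5-fold and none lower, 19.2% against 7.43%, with a median of 0.26. The inhibitors Nfkbia and Nfkbie had 21.6 to 41.9 and 7.45 to 14.98 FPKM. Bcl3 had 5.27 to 9.22, Tnip1 had 17.5 to 30.4, and the apoptosis inhibitor Birc3 had 0.304 to 2.82. Birc3 reached the level minimum only through the conditioned media library, which can raise the share called higher. The subunits differed: Nfkb2 and Relb, of the non-canonical pathway, had ratios of 0.55 and 0.49, and Nfkb1 and Rela had 0.14 and 0.02. The adhesion molecule Icam1, which is induced through NF-kB, had 0.131, 4.096 and 0.631 FPKM, so that its control level was near the bottom of the table. It too reached the level minimum only through the conditioned media library. In the 300 bases around the start site given by RefSeq (GRCm38.p6, 250 before and 50 after), 9 of 21 genes of this list with a promoter in the table held a match to the kB motif on either strand, against 6.20% of 8946 measured genes and 5.14% of 27025 genes in the table. Those 9 had a median ratio of 0.55 and the other 12 of 0.19. Of 10 chemokine genes with a promoter in the table, 3 held the motif: Ccl9 and Cxcl1, which were higher, and Cxcl10, which was lower. Shown here are 120 bases from the promoters of 2 genes described above, with the matched bases in capitals, because these windows hold the motif close to the start; the match in Cxcl1 is a pair of overlapping ones.
Cxcl1 (chr5:90891119-90891238, + strand): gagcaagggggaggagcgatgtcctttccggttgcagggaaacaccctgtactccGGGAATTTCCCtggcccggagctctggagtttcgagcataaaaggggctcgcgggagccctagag
Nfkbie (chr17:45555539-45555658, + strand): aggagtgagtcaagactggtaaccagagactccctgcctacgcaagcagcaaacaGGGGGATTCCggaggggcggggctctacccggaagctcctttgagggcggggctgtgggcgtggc
The match begins 71 bases upstream of the start in Cxcl1 and 106 in Nfkbie. A match is a description of the letters and not a measurement of binding. Since NF-kB induces genes of its list, a high share of matches can follow from the choice of genes alone.

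Interferon response genes lay on the other side of the median. Of 41 measured, 8 were lower by at least 1.5-fold, 19.5% against 4.92% of all loci, 3 were higher, and the median was -0.26. The oligoadenylate synthetase genes Oas2 and Oasl2 had 84.2 to 42.1 and 128 to 72.6 FPKM, and the GTPase gene Irgm1 had 138, 80.1 and 31.6 FPKM. Control was the highest of the 3 libraries for all 3. The members called higher were Irf1, with 32.8, 53.8 and 31.02 FPKM, Socs1, a feedback inhibitor, with 5.39, 9.23 and 3.34 FPKM, and Irf5, with 2.39, 4.21 and 0.902 FPKM. Isg15 and Ifit1, at 509 to 432 and 167 to 137, were within 1.5-fold. Among 23 genes of MHC class I and antigen processing the median was 0.02, and Psmb9, an immunoproteasome subunit, had 6.35 to 18.8. H2-T10 had 323, 121 and 784 FPKM, but it shares its position with 7 other loci of a near-identical family, and the sources used here do not state how reads were split among them.

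Prostaglandin and leukotriene genes held both directions. Of 23 eicosanoid genes measured, 6 were higher by at least 1.5-fold, 26.1% against 7.43% of all loci, and 1 was lower, with a median of 0.28. The membrane glutathione transferase Mgst2, which can make leukotriene C4, had 1.22, 8.79 and 14.5 FPKM, the secreted phospholipase Pla2g2e had 0.74, 5.597 and 1.91 FPKM, and the prostaglandin F receptor Ptgfr had 1.61, 5.904 and 1.69 FPKM. Ptger1, a prostaglandin E receptor, was lower at 23.9, 10.3 and 8.499 FPKM. The 3 higher ones were under 2 FPKM in control. Of these, Pla2g2e reached the level minimum only through the other libraries, which can raise the share called higher.

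**Figure D2:**
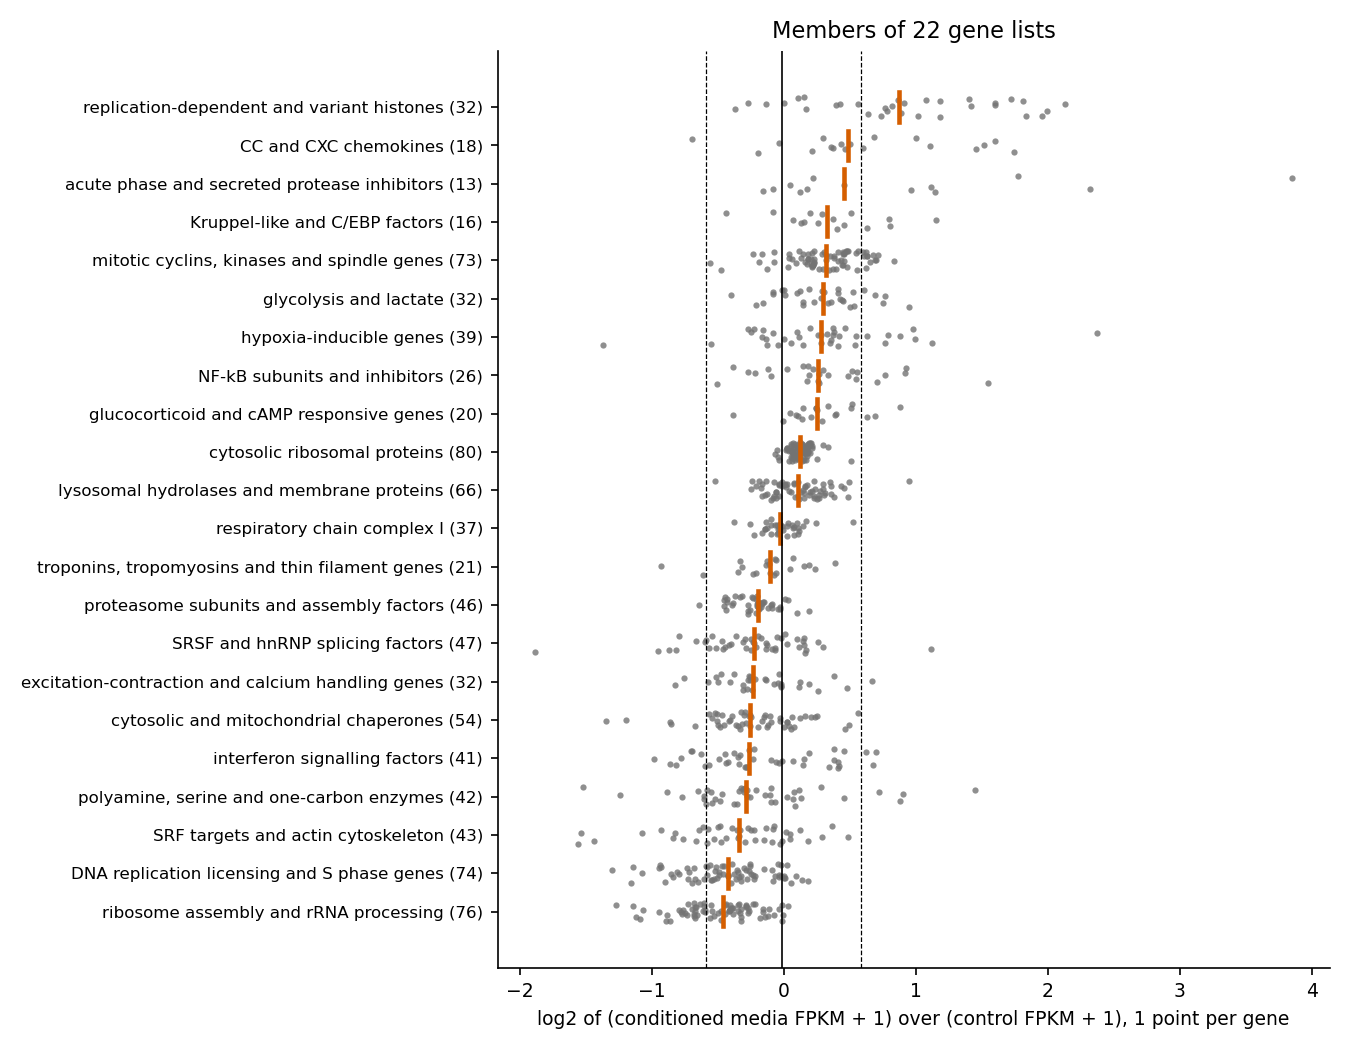
Each grey point is the log2 ratio of 1 gene of the list named at the left, with the number measured in brackets; orange bars are list medians, the solid line is the median of all loci at -0.01 and dashed lines mark 1.5-fold. The medians run from 0.88 for histones to -0.46 for ribosome assembly genes, and the 80 ribosomal protein genes form the tightest group.

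In the muscle programme, the ubiquitin ligase genes Trim63 and Fbxo32 were higher and most contractile genes were close to the median of all loci. Trim63 had 10.6, 21.2 and 17.5 FPKM, a ratio of 0.93, and Fbxo32 had 11.6, 18.8 and 19.7 FPKM, a ratio of 0.66. Control was the lowest library for both. Foxo3, a FoxO factor that induces these ligases when insulin signalling falls, had 17.4 to 31.6 FPKM, Foxo1 had 12.8 to 17.98, and Sesn3, another FoxO target, had 15.98 to 25.7. Of the 33 genes in this list 4 were higher and 1 lower by at least 1.5-fold, 12.1% against 7.43% of all loci, and the median was 0.05. The member called lower was Trim55, which encodes MuRF2, at 34.02 to 21.6.

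None of 21 troponin, tropomyosin and thin filament genes was higher by at least 1.5-fold, and 2 were lower, 9.52% against 4.92% of all loci. These were Xirp1, an actin-bundling protein gene, with 14.5, 7.16 and 16.01 FPKM, and Tpm1, alpha-tropomyosin, with 629, 411 and 473 FPKM. All 7 troponin genes measured lay below the median of all loci, between -0.35 and -0.06, and fast troponin T (Tnnt3) had 396 to 380.1 FPKM. Of 11 sarcomeric myosin and myosin-binding genes, 2 were higher by at least 1.5-fold, 18.2% against 7.43% of all loci, and 1 lower, 9.09% against 4.92%. Mybph, a myosin-binding protein, was lower at 299, 156 and 533 FPKM. Mylk2, skeletal myosin light chain kinase, was higher at 5.55, 14.5 and 6.9 FPKM, as was Mybpc2 at 1.09, 2.22 and 2.16 FPKM. Myh3 and Myh8, embryonic and perinatal myosin heavy chains, had ratios of -0.22 and 0.14. Among 33 Z-disc and M-line genes, 3 were lower by at least 1.5-fold, 9.09% against 4.92% of all loci, and none higher. Titin (Ttn), the sarcomere's molecular spring, had 19.97, 10.1 and 7.34 FPKM. Synpo2l had 57.7, 26.9 and 38.9 FPKM, and Fhl1 had a ratio of -0.70. The Mybph, Xirp1 and Synpo2l levels with resveratrol were above those with conditioned medium alone, and for Mybph and Xirp1 above control as well.

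The myogenic factor MyoD (Myod1), which commits cells to muscle, had 48.2, 28.2 and 51.7 FPKM, a ratio of -0.75, and the TEAD factor Tead4, a target of MyoD, had 22.6, 14.4 and 24.8 FPKM. They were the 2 of 26 myogenic transcription factor genes past 1.5-fold, 7.69% lower against 4.92% of all loci. Myog, Mef2c and Myf5 had ratios of -0.29, -0.38 and -0.22. Among genes of excitation and calcium release, 25 of 32 lay below the median of all loci, with a list median of -0.23. Caveolin 3 (Cav3), the muscle caveolin, had 36.9, 20.4 and 40.95 FPKM, and junctophilin 2 (Jph2), which joins the surface membrane to the sarcoplasmic reticulum, had 53.9, 31.5 and 65.7 FPKM; the release channel Ryr1 and the calcium pump Atp2a1 had ratios of -0.24 and 0.12. Of 24 neuromuscular junction genes, 19 lay below that median. At 1.5-fold, 3 were higher, 12.5% against 7.43% of all loci, and 2 lower, 8.33% against 4.92%. Dok7, needed for receptor clustering at the synapse, had 13.6, 7.095 and 5.203 FPKM, the 3 measured acetylcholine receptor subunits lay between -0.28 and -0.21, and Colq, the anchor of acetylcholinesterase, had 1.09, 5.02 and 1.06 FPKM. Among 9 markers of satellite and reserve cells, 3 were lower by at least 1.5-fold, 33.3% against 4.92% of all loci, and none higher. The Notch target Heyl had 5.26, 2.08 and 0.537 FPKM and the FGF signalling inhibitor Spry1 had 18.4, 9.45 and 7.51 FPKM. The list median was -0.45, but 3 of the 9 lay above the median of all loci, the highest at 0.53. The summed level was 296 FPKM in control and 292 in conditioned media.

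Genes of the actin cytoskeleton that serum response factor regulates were lower. Of 43 measured, 11 were lower by at least 1.5-fold and none higher, 25.6% against 4.92% of all loci, and 35 lay below the median of all loci, with a list median of -0.34. A regulatory myosin light chain of smooth muscle (Myl9, chr2:156775464-156781659) had 80.1, 26.5 and 35.1 FPKM, a ratio of -1.56. Smooth muscle gamma-actin (Actg2, chr6:83512909-83536251) had 92.3, 31.3 and 24.1 FPKM, a ratio of -1.53. Both were highest in control. Transgelin (Tagln) had 218, 103 and 109.9 FPKM and smooth muscle alpha-actin (Acta2) had 892, 468 and 637 FPKM. Of the 6 actins, the 2 cytoplasmic ones, Actb and Actg1, had 1113 to 748 and 1389 to 879 FPKM, ratios of -0.57 and -0.66, while skeletal Acta1 was at -0.07; reads shared between actin copies may have been split in ways the sources used here do not state. Alpha-actinin 1 (Actn1) and filamin A (Flna), which crosslink actin, had 112 to 62.3 and 274 to 161, and Srf itself had 20.5, 12.8 and 15.6 FPKM, a ratio of -0.64. Vinculin (Vcl), which ties actin to the membrane, was just inside 1.5-fold at 141 to 93.98.

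The binding site of serum response factor, the CArG box, matched 8 of the 37 promoters of this list in the 300-base windows, on either strand, against 1.62% of measured genes and 1.81% of all genes in the table. The list was chosen for genes this factor regulates, so a high share can follow from the choice of genes alone. The 8 genes, Actg1, Cnn2, Fhl2, Filip1l, Lima1, Myl9, Srf and Vcl, had a median ratio of -0.61, and the other 29 of -0.29. Over all genes lower by at least 1.5-fold the share with a CArG box was 1.99% of 403, close to that of all measured genes. The windows below show 120 bases that hold the first box in 4 of these genes, with each CArG box in capitals, since they are the genes of this list whose levels are given above; Srf holds 2 boxes.
Myl9 (chr2:156775248-156775367, + strand): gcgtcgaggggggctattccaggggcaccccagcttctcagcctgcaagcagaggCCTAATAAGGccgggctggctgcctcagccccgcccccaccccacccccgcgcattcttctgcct
Srf (chr17:46556180-46556299, - strand): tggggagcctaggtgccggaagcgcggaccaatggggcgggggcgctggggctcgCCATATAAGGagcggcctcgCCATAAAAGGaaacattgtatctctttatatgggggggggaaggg
Actg1 (chr11:120348521-120348640, - strand): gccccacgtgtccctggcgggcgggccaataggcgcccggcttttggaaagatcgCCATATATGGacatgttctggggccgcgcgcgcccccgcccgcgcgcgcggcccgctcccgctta
Vcl (chr14:20929148-20929267, + strand): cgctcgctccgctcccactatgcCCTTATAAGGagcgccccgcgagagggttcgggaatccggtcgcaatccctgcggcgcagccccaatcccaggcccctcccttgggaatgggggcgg
The first box starts 161 bases upstream of the start site in Myl9, 82 in Srf, 90 in Actg1 and 227 in Vcl. The related YAP and TEAD target list held Ctgf at 87.3, 53.7 and 121 FPKM and Wisp1 at 178, 92.3 and 19.5 FPKM, both lower, and Nt5e at 2.91, 7.01 and 3.03 FPKM and Gadd45b at 36.3, 58.2 and 118 FPKM, both higher. Of its 32 genes, 3 were lower and 2 higher by at least 1.5-fold, 9.38% lower against 4.92% of all loci, with a list median of -0.11.

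Genes of ribosome assembly were lower almost throughout. Of 76 genes for rRNA processing and assembly, 31 were lower by at least 1.5-fold and none higher, 40.8% against 4.92% of all loci, 74 lay below the median of all loci, and the list median was -0.46. Nop56 (chr2:130274412-130284451), a core protein of the box C/D snoRNPs that methylate rRNA, had 60.8, 24.6 and 40.9 FPKM, a ratio of -1.27; the gene holds snoRNA genes in its introns. Its partners Nop58 and fibrillarin (Fbl) had 61.3 to 40.2 and 56.8 to 37.3 FPKM. Dyskerin (Dkc1), the pseudouridine synthase of the box H/ACA particles, had 21.1, 9.53 and 8.18 FPKM, and its partner Nhp2 had 34.5 to 19.9. The helicase Ddx21 had 46, 20.4 and 27.3 FPKM, the assembly factor Heatr1 had 13.3, 5.72 and 6.18 FPKM and the methyltransferase Nop2 had 27.8, 13.98 and 16.5 FPKM. In each of these 5 full series control was the highest library. Of 13 genes for RNA polymerase I and its factors, 12 lay below the median of all loci but 1 passed 1.5-fold, Polr1b, with 9.38, 5.06 and 4.27 FPKM; Polr1a had a ratio of -0.53 and Polr1c of -0.07. The abundant nucleolar proteins Npm1 and Ncl had 448 to 368 and 109 to 85.5, ratios of -0.29 and -0.35.

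Ribosomal proteins did not follow the assembly factors. None of 80 cytosolic ribosomal protein genes passed 1.5-fold, 76 lay above the median of all loci, and the median was 0.13. The 32 genes of the small subunit ran from -0.05 to 0.20 and the 46 of the large subunit from -0.07 to 0.51, led by Rpl3, with 859, 1226 and 1142 FPKM. No ratio of the 80 was as low as the median of the assembly list. Of 72 mitochondrial ribosomal protein genes, 47 lay below the median of all loci, with a median of -0.13. Mrpl34 and Mrpl16, at 25.7 to 14.99 and 25.5 to 15.1 FPKM, were the 2 called lower at 1.5-fold. Their share of 2.78% was below the 4.92% of all loci. Among 49 translation factors 1 was called lower, 2.04% against 4.92% of all loci. This was the scaffold Eif4g1, with 104, 68.01 and 62.5 FPKM. Of 34 aminoacyl-tRNA synthetases 24 lay below the median of all loci.

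**Figure D3:**
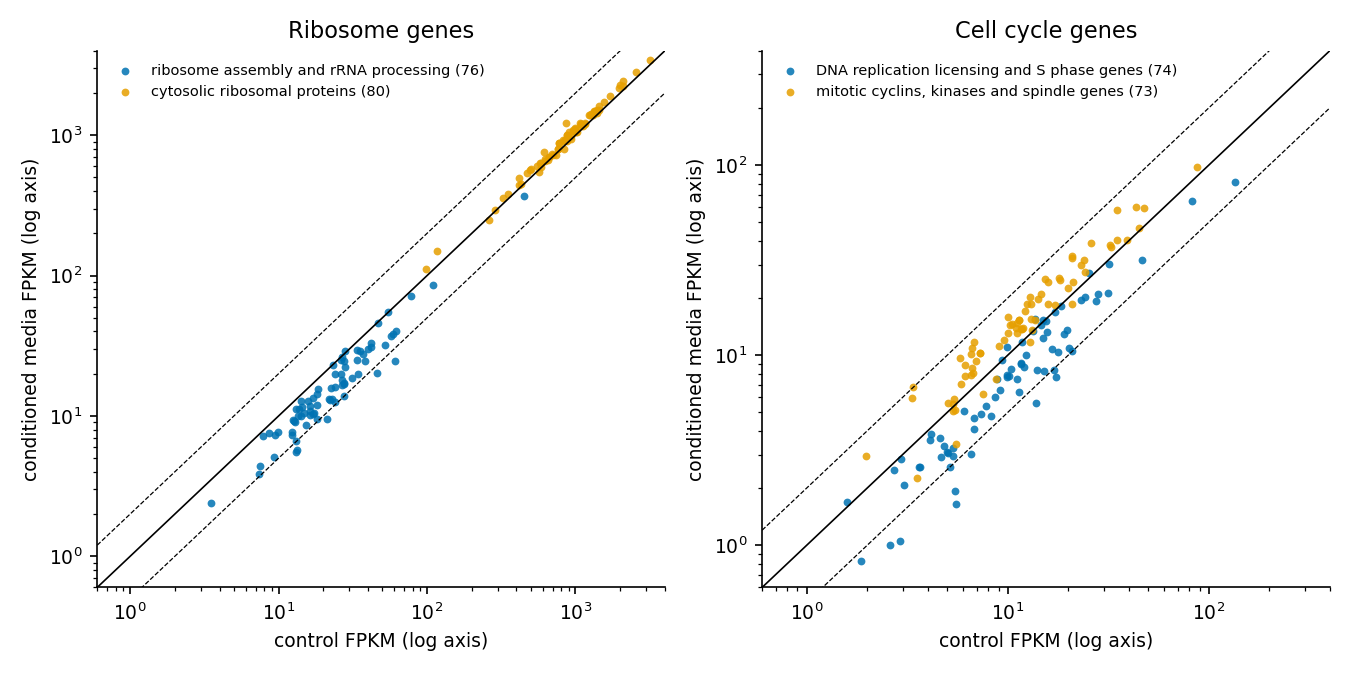
Each point is a gene, with its FPKM in control and in conditioned media on log axes; solid lines mark equal levels and dashed lines 2-fold. In the left panel 74 of the 76 ribosome assembly genes have a ratio below the median of all loci and 76 of the 80 ribosomal protein genes one above it, and in the right panel most of the 74 S phase genes lie below the diagonal and most of the 73 mitotic genes above.

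Myc, the factor best known for driving ribosome assembly genes, had 20.7, 24.5 and 21.1 FPKM, a ratio of 0.23, and none of 14 genes of the MYC, MAX and MXD network passed 1.5-fold. The E-box CACGTG, which MYC and several other factors bind, was in 12 of 68 promoters of the assembly list, 17.6% against 12.0% of measured genes and 8.09% of all genes in the table, and those 12 had a median ratio of -0.58 against -0.43 in the other 56. Polyamines are made from ornithine and decarboxylated S-adenosylmethionine. Spermidine synthase (Srm, chr4:148591513-148594619) had 51.03, 17.1 and 13.2 FPKM, a ratio of -1.52, methionine adenosyltransferase (Mat2a) had 132, 55.4 and 54.6 FPKM, and the decarboxylase Amd1 had 50.7, 27.1 and 34.9 FPKM. In contrast, ornithine decarboxylase (Odc1), the first enzyme of the pathway, had 79.4, 147 and 166 FPKM, and Azin2, an inhibitor of its degradation, had 8.87, 17.5 and 20.6 FPKM. The purine and pyrimidine enzymes Pfas, Ppat, Umps and Ctps were each lower, with ratios of -0.65, -0.60, -0.77 and -0.61. Of the 42 genes in this list, 7 were lower by at least 1.5-fold, 16.7% against 4.92% of all loci. Another 4 were higher, 9.52% against 7.43%, and the median was -0.29.

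Genes for splicing factors were lower in a part of their list. Of 47 SRSF, hnRNP and related genes, 8 were lower and 1 higher by at least 1.5-fold, 17.0% against 4.92%, with a median of -0.22. All 10 SRSF genes lay below the median of all loci, between -0.95 and -0.12, with Srsf3 at 147, 75.5 and 75.9 FPKM and Srsf6 at 76.9, 43.9 and 53.5 FPKM. The RNA helicase Ddx39b, which exports spliced mRNA, had 399.7, 108 and 299 FPKM, but the gene holds a small RNA gene on its strand, and reads from that RNA cannot be told from its own. The same limit applies to Fam65a, the gene with the lowest ratio of those named, at 282, 21.7 and 17.8 FPKM. It applies as well to Cd74, Fas, C3 and Slpi, which were described above as higher. In the splicing list the cold-inducible Cirbp was the member called higher, with 29.6, 65.5 and 113 FPKM, at a locus position it shares with 47 other loci.

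Genes of DNA replication and of mitosis lay on opposite sides of the median. Of 74 licensing and S phase genes, 21 were lower by at least 1.5-fold and none higher, 28.4% against 4.92%, and the median was -0.42. The loading factor Cdc6 had 5.53, 1.66 and 3.19 FPKM, a ratio of -1.30, and E2f2, a factor that activates S phase genes, had 13.8, 5.61 and 2.96 FPKM. The 5 measured subunits of the MCM helicase, which unwinds DNA at the fork, lay between -1.07 and -0.40, with Mcm5 at 17.3, 7.703 and 7.196 FPKM and Mcm3 at 20.8, 10.5 and 10.1 FPKM. The sliding clamp Pcna, the most abundant member, had 134, 81.2 and 110.0 FPKM. All 11 polymerase and primase subunits measured lay below the median of all loci, led by Prim1 at 16.97, 8.32 and 12.1 FPKM. Cyclins E1 and E2 (Ccne1, Ccne2), which start S phase, had ratios of -0.60 and -0.59. E2f1 had 11.7 to 11.7 FPKM, a ratio of 0.00.

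The E2F motif (TTTGGCGC, TTTGCCGC, TTTCGCGC or TTTCCCGC, either strand) was in 22 of 59 promoters of this list, 37.3% against 4.91% of measured genes and 2.61% of all genes in the table. E2F factors act on S phase genes, so here too a high share can follow from the choice of genes alone. Over all 403 genes lower by at least 1.5-fold with a promoter the share was 7.69%, and over 608 genes higher by at least 1.5-fold it was 3.13%. Within the list, the 22 with a match had a median ratio of -0.44 and the other 37 of -0.36, so the lower levels were found in both. The windows below show 2 genes of the list past 2-fold with the matches in capitals; Mcm5 holds a pair of overlapping matches on opposite strands, and the match in Cdc6 is on the opposite strand.
Mcm5 (chr8:75109301-75109420, + strand): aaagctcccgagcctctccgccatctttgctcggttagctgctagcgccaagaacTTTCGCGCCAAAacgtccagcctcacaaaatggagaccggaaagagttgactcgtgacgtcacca
Cdc6 (chr11:98907958-98908077, + strand): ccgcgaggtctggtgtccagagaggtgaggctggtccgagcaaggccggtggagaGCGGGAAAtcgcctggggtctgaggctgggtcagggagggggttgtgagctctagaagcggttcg
The capitals begin 153 bases upstream of the start site in Mcm5 and 138 in Cdc6.

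Of 73 mitotic genes, 12 were higher by at least 1.5-fold and none lower, 16.4% against 7.43%, 65 lay above the median of all loci, and the median was 0.32. The phosphatase Cdc25c, which activates CDK1 for mitosis, had 3.38, 6.83 and 2.43 FPKM, securin (Pttg1) had 35.2, 57.8 and 12.7 FPKM, and the anaphase activator Cdc20 had 20.98, 33.1 and 4.26 FPKM. Cyclin B1 (Ccnb1), with 26.1, 38.7 and 5.98 FPKM, and Top2a, with 47.4, 59.3 and 12.5 FPKM, were within 1.5-fold of control. In each of these 5 genes the conditioned media library was the highest and the library with resveratrol the lowest. The phosphatase Cdkn3, which acts on CDK1 and CDK2 and was among the 20 highest genes, had 2.503, 10.7 and 2.07 FPKM, a ratio of 1.74. The inhibitor Cdkn1a (p21), which holds myotubes out of the cycle, had 623, 575 and 717 FPKM.

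Histone genes were the list farthest above the median. Of 32 measured, 22 were higher by at least 1.5-fold and none lower, 68.8% against 7.43%, and 14 were higher by 2-fold, with a list median of 0.88. All 6 linker histone genes measured were higher by at least 2-fold: Hist1h1c (chr13:23738807-23740552) had 86.1, 305 and 191 FPKM, H1f0, the linker of differentiated cells, had 83.8, 191 and 202 FPKM, and Hist1h1d had 2.54, 12.8 and 7.25 FPKM. Of 19 core histone genes of the Hist clusters, 15 were higher by at least 1.5-fold, and most were at a few FPKM, such as Hist1h2bn at 0.3697, 4.99 and 3.01 FPKM. Hist1h2bc was an abundant exception at 81.5, 173 and 215 FPKM. Several of those called higher were below 1 FPKM in control, such as Hist1h2ac at 0.561 and Hist1h2ae at 0.346. They reached the level minimum through the other libraries, which can raise the share called higher in this list. Among all loci with a mean of 1 to 3 FPKM, 18.3% were higher by at least 1.5-fold. Of 48 such core histone genes, 29 were below the level minimum; transcripts of replication-dependent histones mostly end without a poly(A) tail, and the sources used here do not state whether the libraries were selected for poly(A). These genes are near-identical copies, so that levels of single members are uncertain.

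**Figure D4:**
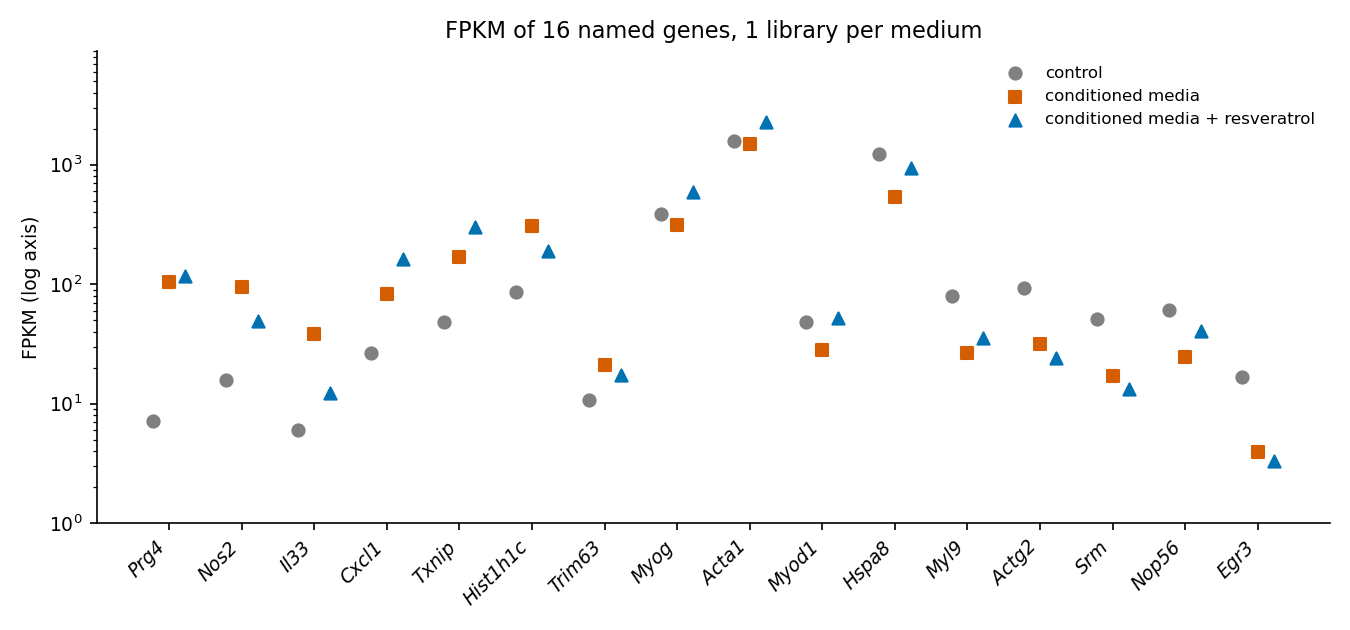
Points are FPKM on a log axis for 16 named genes in the libraries from control (circles), conditioned media (squares) and conditioned media with resveratrol (triangles), 1 library each. Prg4, Nos2, Il33, Cxcl1, Txnip, Hist1h1c and Trim63 are lowest in control, Hspa8, Myl9, Actg2, Srm, Nop56 and Egr3 are highest in control, and Myog and Acta1 are closest between control and conditioned media.

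Cytosolic chaperones were lower in a few members. Hsc70 (Hspa8, chr9:40801273-40805199), the constitutive HSP70, had 1229, 536 and 945 FPKM, a ratio of -1.20; it holds snoRNA genes in its introns. Hsph1 (chr5:149616845-149636344), its nucleotide exchange factor, had 47.6, 18.1 and 33.2 FPKM, a ratio of -1.34. The HSP70 co-chaperone Dnaja1 and the HSP90 co-chaperone Chordc1 had 52.6 to 28.5 and 41.5 to 22.6 FPKM, and mitochondrial HSP60 (Hspd1) had 183 to 114. These were the 5 of 54 called lower, 9.26% against 4.92% of all loci, none was higher, and the list median was -0.25. The 3 HSP90 genes lay between -0.12 and 0.04, with Hsp90aa1 at 301, 276 and 262 FPKM, and the 8 subunits of the CCT chaperonin, which folds actin and tubulin, lay between -0.48 and -0.12. The heat shock element core (GAANNTTC, either strand) was in 13 of 43 promoters of this list against 6.79% of measured genes and 9.04% of all genes in the table. The 13 had a median ratio of -0.25 and the other 30 of -0.28; of the 13, 4 were lower by at least 1.5-fold, and of the other 30, none. None of 43 endoplasmic reticulum chaperone and XBP1 target genes passed 1.5-fold, and BiP (Hspa5) had 394 to 391.

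Proteasome genes were slightly and evenly lower. Of 46, 42 lay below the median of all loci, and the median was -0.20. The ubiquitin receptor Adrm1, with 67.7, 42.99 and 53.7 FPKM, was the 1 gene past 1.5-fold, 2.17% lower against 4.92% of all loci. The 20 genes of the 19S cap, counting its assembly factors Psmd5, Psmd9 and Psmd10, lay between -0.45 and -0.02. The 14 constitutive subunits of the 20S core lay between -0.27 and 0.10. With both libraries brought to equal sums the proteasome list keeps its place below the median of all loci. Of 66 lysosomal genes 44 lay above that median, with a median of 0.11, and of 47 autophagy genes 32 did. Sqstm1, an autophagy receptor, had 207, 276 and 400.3 FPKM, and Bnip3, a receptor for mitochondria, had 184, 364 and 291 FPKM. Bnip3 was the autophagy gene called higher, 2.13% of that list against 7.43% of all loci.

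Stress-responsive genes were higher in part. Of 40 p53 target genes, 9 were higher and 1 lower by at least 1.5-fold, 22.5% against 7.43%, with a median of 0.20. Besides Fas, the BH3-only gene Bbc3 (PUMA) had 4.92, 10.1 and 5.88 FPKM, and Gadd45b had 36.3, 58.2 and 118 FPKM, while Mdm2 had a ratio of 0.26 and Cdkn1a of -0.12. In the BCL2 and caspase list 7 of 38 were higher by at least 1.5-fold, 18.4% against 7.43%. Among them were the BH3-only genes Bmf and Bcl2l11 at 2.75 to 5.799 and 3.38 to 6.98 FPKM, and Bok was lower at 37.6, 16.7 and 7.97 FPKM. Of 55 NRF2, glutathione and thioredoxin genes, 11 were higher by at least 1.5-fold, 20% against 7.43%, and 2 were lower, with a median of 0.18. Txnip, the inhibitor of thioredoxin that also limits glucose uptake, had 48.4, 168 and 299 FPKM, a ratio of 1.78, and the theta class glutathione transferase Gstt1 had 1.49, 9.35 and 4.65 FPKM. The NRF2 targets Nqo1, Hmox1 and Gclm had ratios of 0.27, 0.06 and -0.09, so the members past the rule were others. Of 39 genes of the integrated stress response, 6 were higher by at least 1.5-fold, 15.4% against 7.43%, and 1 was lower. Atf3 had 4.09, 11.1 and 8.88 FPKM, Ddit3 (CHOP) had 46.6, 82.3 and 239 FPKM, and Atf5 was lower at 127, 72.8 and 56.3 FPKM.

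Glucose metabolism genes lay mostly above the median of all loci. Of 32 glycolysis and lactate genes, 26 did, and the median was 0.30. At 1.5-fold, 5 were higher, 15.6% against 7.43%, and none lower. The platelet phosphofructokinase Pfkp had 38.1, 74.5 and 28.4 FPKM, the lactate transporter Slc16a1 had 28.2, 48.8 and 83.6 FPKM, and Gapdh had 2004, 2696 and 2937 FPKM, a ratio of 0.43, whereas Ldha had a ratio of -0.01 and the glucose transporter Slc2a1 of -0.08. The transporter Slc2a6 was among the 20 highest genes, with 14.5, 48.2 and 30.8 FPKM. Of 21 glycogen genes, 5 were higher, 23.8% against 7.43%, and none lower. Branching enzyme (Gbe1) had 14.2, 32.5 and 18.6 FPKM, laforin (Epm2a) had 3.58, 9.67 and 6.69 FPKM, and Stbd1, which binds glycogen to membranes, had 38.9, 68.5 and 47.9 FPKM. Of 39 hypoxia-inducible genes 8 were higher and 1 lower, 20.5% against 7.43%, with a median of 0.29. Ndrg1 had 152, 303 and 151 FPKM, a ratio of 0.99, the oxidoreductase Ero1l had 100, 185 and 221 FPKM, and Selenbp1 had 1.57, 12.3 and 4.52 FPKM; Vegfa, the best known target of hypoxia-inducible factor, had a ratio of -0.04, and Angptl4, an inhibitor of lipoprotein lipase also induced by PPARs, was lower at 94.4, 35.96 and 73.02 FPKM.

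Mitochondrial genes stayed close to the median. None of 37 complex I genes passed 1.5-fold, with a median of -0.03. Of 40 genes for complexes II to V, 3 were higher by at least 1.5-fold and none lower, a share of 7.5%, near the 7.43% of all loci, with a median of -0.01. The 3 encode subunits of cytochrome c oxidase: Cox8b had 13, 27.2 and 27.2 FPKM, Cox6a2 had 29.8, 51.9 and 59.05 FPKM and Cox7a1 had 12.2, 19 and 18.9 FPKM. Among amino acid genes, argininosuccinate synthase (Ass1), which renews the arginine used by nitric oxide synthase, had 43.5, 92.05 and 83.1 FPKM, and the arginine transporter Slc7a2 had 31.8, 63.2 and 71.4 FPKM. The taurine transporter Slc6a6 and the glutamine transporter Slc38a2 were lower, with 123 to 60.1 and 153 to 88.3 FPKM. In lipid metabolism Dgat2, which makes triglyceride, had 2.67, 12.6 and 8.08 FPKM, a ratio of 1.89, while the sterol list had a median of -0.15.

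In the extracellular matrix, lubricin (Prg4, chr1:150361311-150466230), a lubricating proteoglycan of joints and tendons, had the highest ratio of the named genes that were above 0 in control, with 7.12, 103 and 118 FPKM, a ratio of 3.68; it shares its position with 2 other loci. Tgfbi had 1.98, 12.2 and 5.497 FPKM and transglutaminase 2 (Tgm2), which crosslinks matrix, had 11.8, 31.3 and 17.2 FPKM. Of 47 matricellular and proteoglycan genes, 38 lay above the median of all loci, with a median of 0.15. At 1.5-fold, 4 were higher, a share of 8.51% that is near the 7.43% of all loci, and 1 was lower. The lower member was the abundant Thbs1, with 721, 448 and 268 FPKM. Of 19 collagen genes 16 lay above that median, and Col1a1 and Col3a1 had ratios of 0.23 and 0.58. The 7 fibroblast markers, which include these 2 collagens, had a median of 0.53 with 6 above the median of all loci, and their part in the matrix levels was not tested. Of 12 markers of tendon and cartilage cells, 3 were measured, and Prg4 is 1 of them. The tendon factor Scx was lower, with 63.2, 32.6 and 23.4 FPKM, and the cartilage factor Sox9 had a ratio of -0.11. The other 9 were below the level minimum; of these, Acan, Tnmd and Matn1 were listed at 0 in control, with 0.0217, 0.0592 and 0.0344 FPKM in the conditioned media library.

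Transcription factors induced early by signals differed among themselves. Egr3 (chr14:70077445-70082613) had 16.8, 3.95 and 3.32 FPKM, a ratio of -1.85, while Egr1 and Fos had -0.27 and 0.22. Of 36 such genes 5 were higher by at least 1.5-fold, 13.9% against 7.43% of all loci. Another 2 were lower, 5.56% against 4.92%, and the median was 0.23. Of 16 KLF and C/EBP genes 4 were higher, 25% against 7.43%, and none lower, with a median of 0.33. Cebpd, induced by cytokines and glucocorticoids, had 9.72, 22.8 and 41.04 FPKM, and Klf10 had 34.5, 60.6 and 33.2 FPKM. The clock repressor Nr1d1 had 33.4, 71 and 50.2 FPKM, and of 21 clock genes 3 were higher by at least 1.5-fold, 14.3% against 7.43%. Metallothionein 2 (Mt2), which binds zinc, had 627, 973 and 3278 FPKM. Of 40 TGF-beta, activin and BMP genes, 4 were lower by at least 1.5-fold, 10% against 4.92% of all loci. Another 2 were higher, 5% against 7.43%, and the median was -0.01. The BMP target Id2 had 32.4, 15.3 and 17.5 FPKM, the BMP antagonist Grem1 had 92.4, 46.6 and 41.5 FPKM, and activin beta B (Inhbb) had 14.8, 7.29 and 8.18 FPKM, all lower. Another BMP target, Id3, was higher with 13.96, 22.4 and 48.7 FPKM, as was inhibin alpha (Inha) with 2.699, 6.08 and 3.52 FPKM, and the activin antagonist follistatin (Fst) had a ratio of -0.14. In the insulin and growth hormone axis 5 of 38 genes were higher by at least 1.5-fold, 13.2% against 7.43%, and 1 was lower. The higher ones included the PI3-kinase inhibitor Pik3ip1, with 6.76, 17.8 and 17.5 FPKM, the growth hormone receptor (Ghr), with 37.8, 64.5 and 74.96 FPKM, and Igfbp4, with 23.5, 47.6 and 26.8 FPKM. Igf1 had a ratio of -0.18.

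Of the 73 gene lists, 44 had a median above that of all loci and 29 below. The distance from it was 0.25 or more upward for 16 lists and downward for 6. In 8 lists every measured member was within 1.5-fold. With both libraries brought to equal sums, the counts lower by at least 1.5-fold were 11 of 76 ribosome assembly genes, 12 of 74 S phase genes, 7 of 43 actin cytoskeleton genes, 3 of 41 interferon response genes, 5 of 47 splicing genes and 4 of 42 polyamine and one-carbon genes, against 249 of 11858 loci. On that scale 24 of 32 histone genes, 28 of 73 mitotic genes, 10 of 18 chemokine genes, 9 of 26 NF-kB genes and 13 of 32 glycolysis genes were higher by at least 1.5-fold, against 12.7% of all loci. The proteasome list then had a median of 0.00 and the cytosolic ribosomal proteins of 0.32, with 0.17 for all loci. The lists share members, with 144 genes in more than 1 list, so their counts are not separate pieces of evidence.

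**Figure D5:**
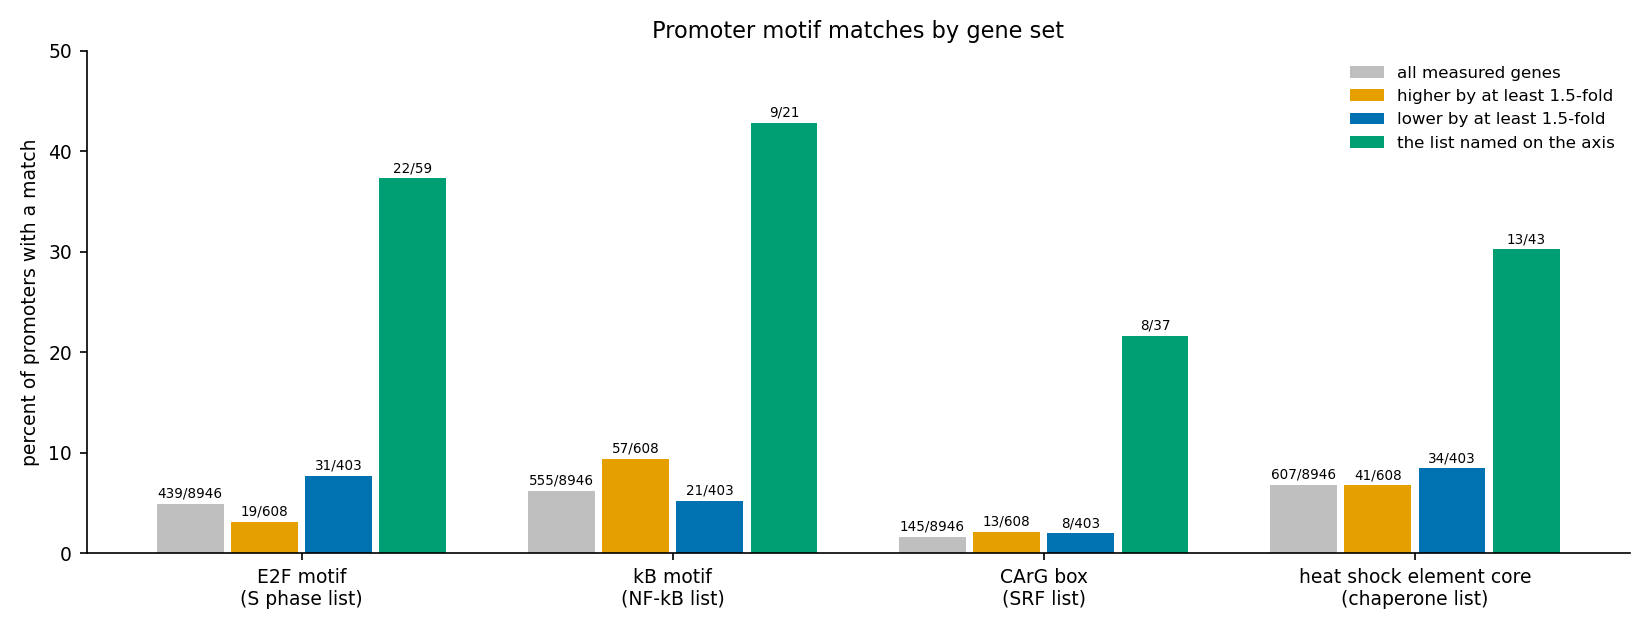
Bars are the percent of promoters (300 bases around the RefSeq start site) with a match to each motif, for all measured genes, genes higher or lower by at least 1.5-fold, and the gene list named under the motif; the numbers above are genes with a match over genes with a promoter. The list bars are 22 of 59, 9 of 21, 8 of 37 and 13 of 43, and the bars for all higher and all lower genes lie much nearer to that of all measured genes. High list bars can follow from the choice of genes alone.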

How the data were processed

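RNA was sequenced from 3 C2C12 cultures, 1 library for each medium, and samples were grouped by their treatment labels. Per the submitters' processing notes, the tools were Bowtie, Cuffdiff 2.2.1.3, Cufflinks 2.2.1.0, FastQC 0.69, TopHat2 2.1.0 and Trim Galore 0.4.3.1, with mm10 as the build. How libraries were scaled, which annotation was used and whether strand was counted is not stated in the sources used here. The FPKM values in the deposited table were computed by the authors from fragments, transcript length and the number of mapped fragments, and only these were used; the authors' fold changes, p-values and test statistics were left out. Read totals are unknown, so no interval for counting error is given. Without strand information, overlapping and antisense genes cannot be told apart. Starts were converted to 1-based positions.

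Ratios were log2((FPKM + 1)/(FPKM + 1)) for loci with a mean of 1 FPKM or more over the 3 libraries, computed in Python 3.11.15 with pandas 2.3.3 and numpy 2.4.6. The 2-fold rule was tested on simulated data, and the 1.5-fold rule was not. Loci are Cufflinks bundles, and 2984 of those described share their position with another locus. Named genes among them include Nfkbia, with 4 other loci, Tagln and Tnfrsf12a, with 3 each, and Pik3ip1, with 7. Of 11211 different single symbols, 99.3% were found in GENCODE M21, where 992 hold on their strand a small RNA gene no longer than 200 bases. The 73 gene lists hold 2664 symbols, of which 2212 loci were measured; of several loci with the same symbol, that of the highest mean was used. The members and lists were chosen with earlier results of these data known. The functional groups inside lists (such as linker histones, SRSF genes or proteasome parts) were set after the values were seen.

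The text names genes by a rule: the 20 highest and the 20 lowest of those with 1 symbol, a 2-fold ratio and 10 FPKM or more in the higher library, without small RNA genes or predicted models; up to 6 per list past 1.5-fold by size of the ratio (the 2 with the largest where none passes), and 16 by name. Some genes that this rule selects are not reported here. Genes named beside these, to show members within 1.5-fold, were chosen after their values were seen. Promoters are the RefSeq table of GRCm38.p6, matched by symbol for 8946 genes. Alternatives changed the pseudocount, the filter, the scaling and the loci used.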

Additional observations from a re-analysis of the deposited data

How the results depend on the processing

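The counts past the size rules depended on the processing, in the lists as well. Of 76 ribosome assembly genes, 31 were lower by at least 1.5-fold, and 11 at equal sums. Of 73 mitotic genes, 12 were higher, and 28 at equal sums. A change of scaling moves a list and all loci nearly alike, so list medians relative to that of all loci could change little from it. With a pseudocount of 0.1, 450 loci were higher and 149 lower by at least 2-fold, 599 in all, against 235, 89 and 324; with a pseudocount of 5 they were 56, 38 and 94, and at 1.5-fold 301 higher and 247 lower. A mean of 5 FPKM or more left 120 loci higher by 2-fold, 188 in either direction and 469 higher by 1.5-fold. On TPM, which keeps the pseudocount at 1, 146 were higher and 30 lower by 2-fold, 176 in all, and 152 were lower by 1.5-fold. Equal sums at the level of the deposited values, an alternative chosen after seeing the data, gave 370 higher and 50 lower by 2-fold, and 1504 higher and 249 lower by 1.5-fold. The share of 2-fold calls that were higher was 72.5%, and became 83.0% on TPM, 88.1% at equal sums, 59.6% with a pseudocount of 5 and 63.8% at 5 FPKM or more. At 1.5-fold it was 60.2%, and became 85.4% on TPM and 85.8% at equal sums. The median of all loci moved from -0.01 to 0.14 on TPM and to 0.17 at equal sums.

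The kB motif share of genes higher by at least 1.5-fold was 15.2% with a pseudocount of 5, against 9.38%. The E2F share of genes lower by at least 1.5-fold was 11.8% on TPM and 10.9% at equal sums, against 7.69%. Relative to the median of all loci, 2 list medians of 0.1 or more in size changed sign: cytokines became -0.0708 at 5 FPKM or more, and sarcomeric myosins 0.0221 among loci that share no position. The cause was not tested. The number of lists above the median of all loci was 42 to 46 under all alternatives run. The 42 was at 5 FPKM or more, where fewer lists had a measured member. The largest change of scaling shifted ratios by 0.20 before the pseudocount, less than 1.5-fold. Filters and the pseudocount do not change the sign of a ratio. Genes past 1.5-fold therefore could not change direction, and this says nothing about their stability.

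No paired analysis was possible because each medium has 1 library. For the same reason there was no replicate to leave out, and a difference between media cannot be told apart from a difference between 2 cultures. Read depth is unknown.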

Other observations

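Genes past 1.5-fold in the same direction lay near each other in several places. A run needed at least 3 such genes, each within 100 kb of the next. Genes not past the rule were skipped, so other genes may lie between the members of a run. How many runs the shares of 7.43% higher and 4.92% lower among all loci would give was not computed. The 3 theta class glutathione transferase genes Gstt3, Gstt1 and Gstt2 lay between 75774122 and 75834981 on chromosome 10 (mm10) and were all higher. In control Gstt2 and Gstt3 had 0.578 and 0.659 FPKM, and they reached the level minimum only through the other libraries. Histone genes made up 3 such runs on chromosome 13, with 6, 5 and 5 genes. Between 32965428 and 33203980 on the same chromosome lay 3 higher members of the Serpinb family of intracellular protease inhibitors, Serpinb6b, Serpinb1b and Serpinb9c, which are close copies. Socs3, the feedback inhibitor of cytokine signalling through STAT3, was in a run on chromosome 11 with Afmid and Tha1, and had 12.7, 22.7 and 68.8 FPKM. The runs of lower genes included Hnrnpab, Nhp2 and N4bp3 between 51584757 and 51657681 on chromosome 11. Reads from near-identical or overlapping neighbours cannot be told apart here.

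Among the 20 lowest genes were several that no list held. Dynap had 41.7, 15.0 and 4.88 FPKM, Cmklr1, the receptor of chemerin, had 20.4, 7.47 and 1.12 FPKM, the connexin gene Gja5 had 10.5, 3.46 and 0.786 FPKM, and the chromatin protein gene Hmga2, which is a mark of proliferating embryonic cells, had 20.2, 7.84 and 12.5 FPKM. Sox11 had 26.6, 10.6 and 15.7 FPKM. Among the 20 highest, Dcxr, which reduces L-xylulose, had 8.10, 28.8 and 25.6 FPKM, profilin 2 (Pfn2), an actin monomer-binding protein, had 3.50, 13.4 and 11.8 FPKM, and Ndrg2 had 13.1, 40.5 and 19.4 FPKM.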
